A study of Mus musculus with 10 samples.

Results

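NF-kB is a dimeric transcription factor built from 5 related subunits, and it was examined here through 10 genes in lung group 2 innate lymphoid cells (ILC2), lymphocytes without antigen receptors that secrete type 2 cytokines. The genes encode the 5 subunits (Nfkb1, Nfkb2, Rel, Rela and Relb) and 5 proteins that restrain or modulate them (Nfkbia, Nfkbib, Nfkbid, Nfkbiz and Tnfaip3). The rule lists them by name and uses no measured value, although the set was drawn up with earlier results of these data known. All 10 were found by symbol among 54838 gene identifiers. The cells were sorted from lungs of C57BL/6 mice with papain-induced inflammation as lineage-negative, CD90.2+ cells, with or without ST2 and KLRG1. One group of 5 libraries came from wild-type mice (WT) and the other 5 from c-Maf KO mice, cohoused littermates per the labels. Both groups share strain, papain exposure and sort. The sources used here do not give the age of the mice, the papain dose, how c-Maf was deleted or in which cells. Libraries are numbered in order of accession within a group, and the numbers pair nothing. The labels give each library its own number without saying whether each came from its own mouse, so a p-value reflects only how these libraries vary, which may be technical.

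As background, NF-kB dimers wait in the cytoplasm of resting cells, held by inhibitor of kB (IkB) proteins. Alarmin receptors such as the IL-33 receptor activate the IKK kinases, which mark IkB for destruction and free the dimers to enter the nucleus. In ILC2, IL-33 signals through this route to cytokine genes. Several of the genes that NF-kB turns on encode its own inhibitors, so the pathway brakes itself.

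The WT libraries held 21400938 to 24489987 read counts and the KO libraries 3620002 to 9867580. A gene was called missing from a library with at most 3 counts. From 54.6 to 82% of the 7490 tested genes were missing from a given KO library, against 0.694 to 3.51% in WT, and KO library 1 stood farthest out. Maf, the targeted gene, had 3252, 3832, 1412, 1696 and 2727 counts in WT and 0, 0, 0, 108 and 0 in KO. All 12 ILC2 markers examined had counts in both groups, and their summed level was 6791 to 10390.0 CPM (read counts scaled to a common total, here by library size) in WT and 752 to 15100.0 in KO. The 752 was KO library 1, and KO libraries 2 to 5 held 6692 to 15100.0. The summed level of 8 erythroid markers was 9.1 to 25 CPM in WT and 120 to 190400.0 in KO, highest in KO library 1. That of 7 endothelial and fibroblast markers was 37.4 to 166 CPM in WT and 0 to 564 in KO, also highest in KO library 1, with Cdh5 at 0 in every library. That of 10 macrophage and dendritic cell markers was 4.45 to 584 CPM in WT and 0 to 6.31 in KO, with Fcgr1 at 0 in every library. NF-kB genes are expressed in most blood cells, and the part of other cells in the values below was not tested. In bulk RNA, fewer cells that express a gene and less of its RNA per cell cannot be told apart.

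None of the 10 genes passed the edgeR quasi-likelihood test of KO against WT at a Benjamini-Hochberg adjusted p of 0.05, while 27.1% of all tested genes were called lower and 1.5% higher. At an unadjusted p under 0.05 there was 1, Nfkbia, against 35.5% of all tested genes. These shares depend on level. With a mean of at least 100 CPM in WT or KO as the filter, edgeR called 31 of 1943 genes lower and 81 higher. None of the 6 genes of the set kept by that filter passed. Other tools called some: DESeq2 2 higher (Nfkbia and Tnfaip3; 13.5% of all its genes), voom 3 lower (Rel, Rela and Relb; 33.2%) and voom with sample weights 4 lower (these and Nfkb2; 37.6%). The edgeR log2 fold changes were negative for Nfkb2 and for Rel, Rela and Relb, whose products carry transactivation domains, and positive for the other 6. Of the 6, the difference of mean log2(CPM + 1) was negative for Nfkbib (−1.0), Nfkbid (−2.37) and Nfkbiz (−0.12), so their direction is not settled. The median edgeR log2 fold change of the 10 was 0.49, against −0.47 over all tested genes, which include many at lower levels. With the 100 CPM minimum the median was 0.72 for the 6 genes of the set kept and 0.94 over the genes of that fit. Rel, Rela and Relb were lower in KO by a two-sided exact permutation test on the log2(CPM + 1) scale, adjusted over all tested genes. By that test 32.2% of all genes were lower, so 3 of 10 is close to the background.

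**Figure D1:**
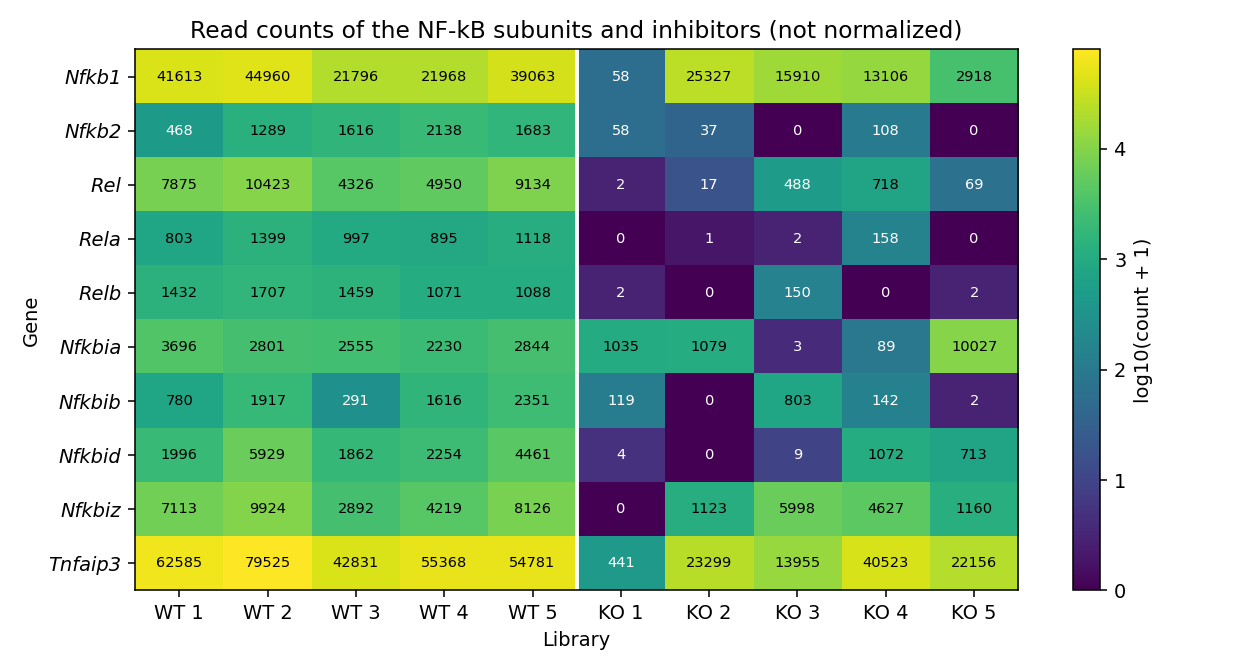
Read counts of the 10 genes (rows) in the 10 libraries (columns), printed in each cell and coloured on a log10(count + 1) scale. The WT columns have no value under 291, whereas KO cells range from 0 to 40523, and KO library 2 holds 25327 counts of Nfkb1 and none of Nfkbid.

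Promoters of the set are printed because the pathway's self-braking runs through kB sites, the short near-palindromic sequences that NF-kB dimers bind. The RefSeq windows of GRCm38.p6 were searched over the 250 bases before each start site, on both strands, for the 10-base kB consensus and for a variant of 3 G, any 2 bases, 3 T and 2 C, whose matches in these genes were all also consensus matches. Of the 7 genes with a window, 5 held a consensus match, Nfkb2, Rel, Nfkbia, Nfkbid and Tnfaip3, against 8.23% of 27025 genes. The variant was found in 4 of them, all but Nfkbid, against 1.65% of genes. A gene with several start sites has several windows and so more room for a match. Counted by window, 7 of 12 held a consensus match, against 7.25% of 32851. No match was found in the windows of Rela and Nfkbib. Nfkb1, Relb and Nfkbiz were not searched. The full upstream windows of Nfkbia and Rel are printed 5′ to 3′ on the gene's strand, as the inhibitor most variable between KO libraries and the most abundant of the subunits below WT in every KO library, with consensus or variant matches in capitals.
Nfkbia, chr12:55492648-55492897, minus strand: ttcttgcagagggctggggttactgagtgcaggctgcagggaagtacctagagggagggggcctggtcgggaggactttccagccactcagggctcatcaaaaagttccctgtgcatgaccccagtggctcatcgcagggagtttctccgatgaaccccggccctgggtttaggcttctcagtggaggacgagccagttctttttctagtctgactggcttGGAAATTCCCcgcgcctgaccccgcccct
Rel, chr11:23770970-23771219, minus strand: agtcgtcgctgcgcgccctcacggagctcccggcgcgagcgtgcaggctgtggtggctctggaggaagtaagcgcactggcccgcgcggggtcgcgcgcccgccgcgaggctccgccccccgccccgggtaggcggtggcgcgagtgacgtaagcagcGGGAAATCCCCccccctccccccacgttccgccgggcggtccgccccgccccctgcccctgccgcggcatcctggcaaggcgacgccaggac

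The Nfkbia match lies 29 bases before the start site and those of Rel, 2 overlapping matches, 92 and 91 bases before it. In the other 3 genes, Tnfaip3 held 2 matches, Nfkb2 5 and Nfkbid 2. Of these, 5 are shown with up to 10 bases on each side, to set them beside the sites of Nfkbia and Rel. All 5 lie inside the gene's annotated span, before a start site within that span. Capitals mark 1 match in each, and at the first Nfkb2 site a second match, not marked, starts 1 base further on. A match is a description of the letters and not a measured binding site.
Tnfaip3, chr10:19015411-19015432, minus strand: aatttccatcGGAAATCCCCct
Tnfaip3, chr10:19015516-19015545, minus strand: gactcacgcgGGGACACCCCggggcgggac
Nfkb2, chr19:46304688-46304717, plus strand: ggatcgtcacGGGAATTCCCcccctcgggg
Nfkb2, chr19:46305695-46305724, plus strand: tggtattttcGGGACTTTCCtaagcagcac
Nfkbid, chr7:30422170-30422199, plus strand: gccccgccctGGGACTTCCCagagcaccac

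Within the set, 2 transcripts had the highest mean levels in WT ILC2. Levels are set side by side as TMM-scaled CPM per kilobase of exonic length (GENCODE M21), which allows genes of different length to be compared. That length joins the exons of all annotated transcripts, 12061 bases for Nfkb1 and 7226 for Tnfaip3, so the order depends on the annotation. Tnfaip3, which encodes the ubiquitin-editing enzyme A20, stood at 203 ± 40.5, and Nfkb1, which encodes p105 and its product p50, at 70.1 ± 23.2 (SD, n = 5). The WT ranges of these 2 did not overlap, and Tnfaip3 was the higher in 5 of 5 WT libraries and in 5 of 5 KO libraries. Below them came Nfkbia at 44.6 ± 13.3, Nfkbid at 33.8 ± 15.4, Nfkbiz at 31.5 ± 12.7 and Rel at 24.3 ± 7.67. Each of these overlapped its neighbour in the order, and Nfkb1 overlapped Nfkbia although it was above it in 5 of 5 WT libraries. Nfkbib followed at 15 ± 8.07, then Relb at 8.83 ± 2.42, Rela at 8.43 ± 1.55 and Nfkb2 at 7.69 ± 3.18. The last 3 could not be ranked: Relb was above Rela in 2 of 5 WT libraries, and Rela above Nfkb2 in 2 of 5. Rela, which encodes p65, the main activating partner of p50, was thus among the 3 least abundant transcripts of the set.

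The spread between WT libraries also differed by gene. The coefficient of variation was lowest for Rela at 18.4% and Tnfaip3 at 20%, and highest for Nfkbib at 53.6%. Its median over the 10 genes was 32.4%, against 39.8% over 3239 tested genes with a WT mean of at least 20 CPM. Nfkb1, Rel, Nfkbid and Nfkbiz had their 2 lowest WT values in the same pair, WT libraries 3 and 4. For 16.5% of all tested genes that pair was also the lowest, more often than any other pair, so 4 of 10 genes share a pattern that many genes show.

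Among the activating subunits, Rel was the most abundant. Rel encodes c-Rel, the lymphoid subunit that enters the nucleus after antigen receptor or cytokine signals (GRCm38 chromosome 11, 23736847 to 23770970, minus strand, protein coding). It had 7875, 10423, 4326, 4950 and 9134 counts in WT libraries 1 to 5 and, in the same order, 2, 17, 488, 718 and 69 in KO. Scaled by TMM, the WT mean was 181 ± 57.3 CPM and the KO mean 40.9 ± 43.4 CPM (SD, n = 5 each). Every KO library was below every WT library, with KO libraries 3 and 4 closest to the WT range. The edgeR log2 fold change was −2.15 (SE 1.44, adjusted p = 0.319). The exact permutation p was 0.00794, the smallest that 5 against 5 libraries can give, with an adjusted p of 0.0268.

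Rela (chromosome 19, 5637483 to 5648130, plus strand, protein coding) was present in all WT libraries, at 803, 1399, 997, 895 and 1118 counts. In KO it had 0, 1, 2, 158 and 0 counts, so KO library 4 held nearly all of its reads. That library was also the only KO library with Maf reads. The summed level of 6 B cell markers was 202 CPM in it, 0 to 0.21 CPM in the other KO libraries and 24.9 to 172 CPM in WT. In the KO group 3 of the 6 had counts, with Cd79a, Cd79b and Ms4a1 at 0, and the part of B cells in the Rela value was not tested. The means were 25.9 ± 4.77 CPM in WT and 4.59 ± 10 CPM in KO (n = 5 each), with 4 of 5 KO libraries below every WT library and KO library 4, at 22.5 CPM, inside the WT range. The edgeR log2 fold change was −2.47 (SE 1.67, adjusted p = 0.324), and without KO library 4 it was −7.36 (adjusted p = 0.00525), where 37.8% of all genes were lower. With any other single KO library left out it was −2.15 to −2.20 and did not pass (adjusted p = 0.295 to 0.348). KO library 4 was singled out by its Rela value, so that fit adds no support. By exact permutation p was 0.0159 (adjusted p = 0.0478).

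Relb encodes the subunit that pairs with p52 in the non-canonical branch of the pathway (chromosome 7, 19606217 to 19629438, minus strand, protein coding). Its counts were 1432, 1707, 1459, 1071 and 1088 in WT and 2, 0, 150, 0 and 2 in KO, where KO library 3 stood alone. Its level was 34.3 ± 9.41 CPM in WT and 4.75 ± 8.88 CPM in KO (n = 5 each), and all 5 KO libraries lay under the WT range. In edgeR the log2 fold change was −2.83 (SE 1.75, adjusted p = 0.274), and without KO library 3 it was −5.24 (adjusted p = 0.0341), where 37.9% of all genes were lower. With any other single KO library left out it was −2.44 to −2.68 and did not pass (adjusted p = 0.226 to 0.299). KO library 3 was singled out by its Relb value, so that fit adds no support. As for Rel, the exact permutation p was 0.00794 and the adjusted p 0.0268. These adjusted values can pass only because many genes share the smallest p: 28.9% of tested genes had all 5 KO libraries below every WT library, as 2 of the 10 genes here did.

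The precursor subunits had edgeR log2 fold changes of opposite sign, and neither passed. Nfkb2 encodes p100, which is both an inhibitor and the source of p52 (chromosome 19, 46304320 to 46312385, plus strand, protein coding). It had 468, 1289, 1616, 2138 and 1683 counts in WT and 58, 37, 0, 108 and 0 in KO. After scaling this was 35.3 ± 14.6 and 17.8 ± 28.9 CPM (n = 5 each), and the high KO value came from KO library 1, where 58 counts were scaled to 68.2 CPM. By library size alone, 5 of 5 KO libraries were below every WT library and the exact permutation p was 0.00794 (adjusted p = 0.0212, as lower were 41.9% of all genes), while by TMM it was 0.0952 (adjusted p = 0.19). Its edgeR log2 fold change was −1.0 (SE 1.71, adjusted p = 0.729), and its sign turned with RLE size factors (1.07) and DESeq2 (0.98). Of its exonic bases 18.1% are shared with genes on the opposite strand, and the strand setting of the counting is not given in the sources used here.

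Nfkb1 had reads in every KO library (chromosome 3, 135584655 to 135691547, minus strand, protein coding). Its counts were 41613, 44960, 21796, 21968 and 39063 in WT and 58, 25327, 15910, 13106 and 2918 in KO. The scaled level was 845 ± 280 CPM in WT and 1839 ± 1361 CPM in KO (n = 5 each). In KO libraries 2 to 5 it was above every WT library by TMM, and in KO library 1 below every one. By library size 2 KO libraries were above every WT library, 1 was within the WT range and 2 were below it. Fitted by edgeR, the log2 fold change was 1.12 (SE 0.99, adjusted p = 0.466), and −0.02 with library size alone. The exact permutation p was 0.786 (adjusted p = 0.875). Leaving out KO libraries 1 and 5, the 2 with the smallest totals, gave 1.58 (SE 0.53) with an edgeR adjusted p of 0.036, an alternative chosen after seeing the data in which 3.53% of all genes were higher.

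**Figure D2:**
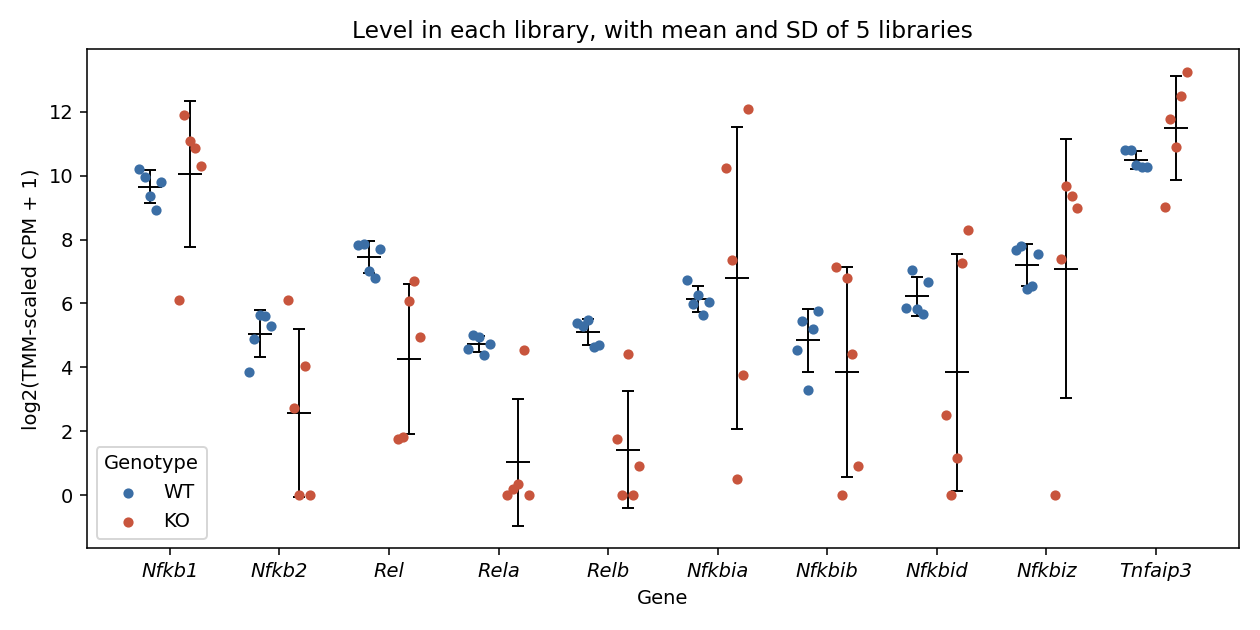
Level of each gene (x axis) as log2 of TMM-scaled CPM plus 1 (y axis), with 1 point per library, WT in blue and KO in red, and black bars for the mean and SD of 5 libraries. WT points lie closer together than KO points for each gene, although those of Nfkbib span 6.12-fold. KO points of Nfkb2, Nfkbia, Nfkbib, Nfkbid and Nfkbiz spread from near 0 to above the WT points.

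The make-up of the subunit pool within a library does not depend on how libraries are scaled. Per exonic length, Nfkb1 gave 51.8 to 65.9% of the 5 subunits in WT. In KO libraries 2 to 5 its share was 99.5, 92.7, 86.4 and 96.1%, above the WT range, and in KO library 1 it was 26.4%, where Nfkb2 took 69.4% on 58 counts each. Rel gave 16.8 to 22.4% in WT and 0.108 to 7.65% in KO, with no overlap. The shares of Rela (4.99 to 9.44% in WT, 0 to 4.09% in KO) and Relb (5.12 to 10.9% and 0 to 2.82%) did not overlap either. Shares within a pool are tied to each other, so a higher share of 1 subunit lowers the rest, and no test was made of them. The shares of Nfkb1 in KO libraries 2 to 5 rest on 2918 to 25327 counts and those of Rela and Relb in the KO group on 0 to 158.

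**Figure D3:**
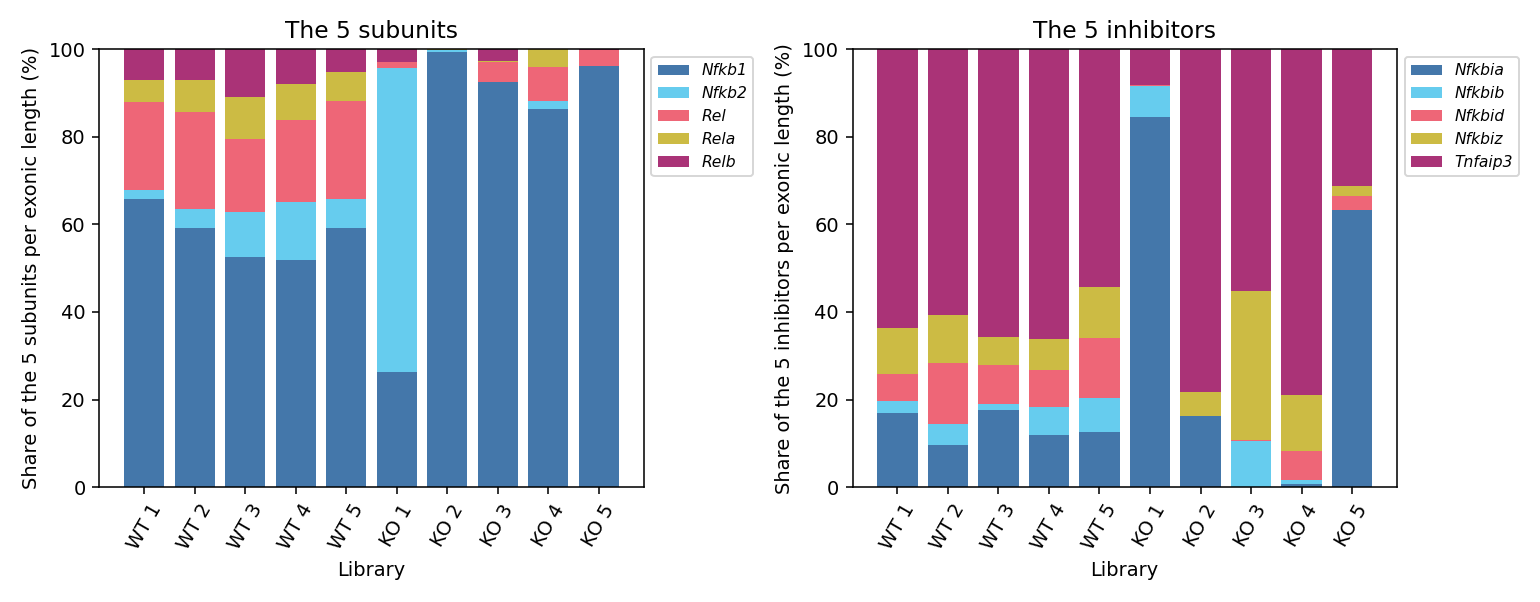
Stacked bars of the share, in percent per exonic length, of each of the 5 subunits (left) and each of the 5 inhibitors (right) in every library. WT bars look alike, with Nfkb1 and Tnfaip3 the largest parts, while KO libraries 2 to 5 are almost all Nfkb1 on the left and Nfkbia takes 84.5 and 63.4% of the right bars in KO libraries 1 and 5.

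Among the inhibitors, Tnfaip3 was the most abundant in WT. In KO its mean per kilobase, 593 ± 499, was below that of Nfkbia, 719 ± 1167, which rests on KO libraries 1 and 5. A20, its product, removes and adds ubiquitin chains on signalling proteins and shuts off IKK activation (chromosome 10, 19000910 to 19015657, minus strand, protein coding). It had 62585, 79525, 42831, 55368 and 54781 counts in WT and 441, 23299, 13955, 40523 and 22156 in KO. It was one of 2 genes of the set, with Nfkb1, over 3 counts in all 5 KO libraries, as were 7.06% of all tested genes. At matched WT levels it was 71.5% of the 267 tested genes at 200 to 1000 CPM, where Nfkb1 lies, and 100% of the 29 above 1000 CPM, where Tnfaip3 lies. The scaled level was 1466 ± 293 CPM in WT and 4282 ± 3608 CPM in KO (n = 5 each), above every WT library in KO libraries 2 to 5 and below every one in KO library 1. By library size the WT libraries held 2001 to 3247 CPM and KO libraries 1 to 5 held 92.7, 2566, 1613, 4107 and 6120.4 CPM, so that only KO libraries 4 and 5 remained above the WT range. With edgeR it had a log2 fold change of 1.55 (SE 0.85, adjusted p = 0.214). DESeq2 called it higher at 2.17 (adjusted p = 0.0411), as did edgeR without KO library 1 at 2.01 (SE 0.57, adjusted p = 0.013), where 3.72% of all genes were higher. With any other single KO library left out edgeR did not call it (adjusted p = 0.11 to 0.393). The exact permutation test gave p = 0.214 (adjusted p = 0.344), with a difference of 0.99 that was −0.64 by library size alone.

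Nfkbia encodes IkB-alpha, the inhibitor that is destroyed and remade in each round of signalling (chromosome 12, 55489410 to 55492647, minus strand, protein coding). Its WT counts were even, at 3696, 2801, 2555, 2230 and 2844. Its KO counts were not: 1035, 1079, 3, 89 and 10027, with 82% of the KO reads in KO library 5. The scaled KO values were 1218, 162, 0.411, 12.7 and 4393 CPM, so 3 KO libraries were above every WT library and 2 below every one, against a WT mean of 71.9 ± 21.4 CPM (n = 5). By library size 2 were above every WT library, 1 was within the WT range and 2 were below it. The edgeR log2 fold change was 4.01 (SE 1.66, unadjusted p = 0.0271, adjusted p = 0.0858). It passed with RLE size factors (5.42, adjusted p = 0.0445), where 2.58% of all genes were higher, and DESeq2 (5.31, adjusted p = 0.00368), and in edgeR without KO library 1, 2, 3 or 4 (adjusted p = 0.0198 to 0.0496). In these 4 fits 3.72, 3.56, 3.09 and 3.41% of all genes were higher. Without KO library 5 it was 2.85 (adjusted p = 0.19), and without KO libraries 1 and 5 it was −0.34 (adjusted p = 0.872), so the positive value rests on those 2 libraries. The exact permutation p was 0.802 (adjusted p = 0.888). These are the KO libraries with the smallest totals, and KO library 1 also had the most erythroid marker reads; the part of either in the Nfkbia value was not tested.

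Nfkbiz and Nfkbid encode nuclear IkB proteins, which bind NF-kB on DNA and can raise or lower single target genes. Nfkbiz (chromosome 16, 55811375 to 55838899, minus strand, protein coding) had 7113, 9924, 2892, 4219 and 8126 counts in WT and 0, 1123, 5998, 4627 and 1160 in KO. It was absent from KO library 1. Scaled by TMM, it stood above every WT library in KO libraries 3, 4 and 5, at 821, 660 and 508 CPM against 158 ± 63.5 CPM in WT (n = 5). By library size KO library 5, at 320 CPM, lay inside the WT range of 135 to 405 CPM, and KO libraries 3 and 4 stayed above it. For Nfkbiz the edgeR log2 fold change was 1.45 (SE 1.40, adjusted p = 0.508), and the exact permutation p was 0.976 (adjusted p = 1). Nfkbid (chromosome 7, 30421732 to 30428746, plus strand, protein coding) had 1996, 5929, 1862, 2254 and 4461 counts in WT and 4, 0, 9, 1072 and 713 in KO. Scaled by TMM, it was above every WT library in KO libraries 4 and 5, at 153 and 312 CPM, and below every one in the other 3. By library size Nfkbid stood at 109 and 197 CPM in KO libraries 4 and 5, inside the WT range of 82.9 to 242 CPM. Its TMM-scaled WT mean was 79.4 ± 36.2 CPM and its KO mean 94.2 ± 138 CPM (n = 5 each). The edgeR log2 fold change was 0.25 (SE 1.71, adjusted p = 0.94) and the exact permutation p 0.175 (adjusted p = 0.294).

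Nfkbib encodes IkB-beta, a slower-turning relative of IkB-alpha (chromosome 7, 28758251 to 28767512, minus strand, protein coding). Its counts were 780, 1917, 291, 1616 and 2351 in WT and 119, 0, 803, 142 and 2 in KO. It was the most uneven gene of the set in WT, with a 6.12-fold range. Scaled by TMM, it lay above, within and below the WT range in 2, 1 and 2 KO libraries, and by library size in 0, 3 and 2. The edgeR log2 fold change was 0.73 (SE 1.68, adjusted p = 0.801), and −1.05 with library size alone. Of its exonic bases 16.4% are shared with Sirt2 and Ccer2 on the opposite strand.

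Whether a gene of the set was missing from KO libraries followed its WT level. Rela and Relb were each missing from 4 of 5 KO libraries, Nfkb2 and Nfkbib from 2, Rel, Nfkbia, Nfkbid and Nfkbiz from 1, and Nfkb1 and Tnfaip3 from none. Thus 2 of 10 genes were missing from at least 3 KO libraries, against 70.9% of all tested genes. Among 1692 tested genes at 20 to 50 CPM in WT, 70.6% were missing that often, and 2 of the 4 genes of the set at this level were. At 50 to 100 CPM it was 33.1% of 837 genes, and at 100 to 200 CPM 6.28% of 414 genes, with none of the 4 genes of the set at those levels.

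**Figure D4:**
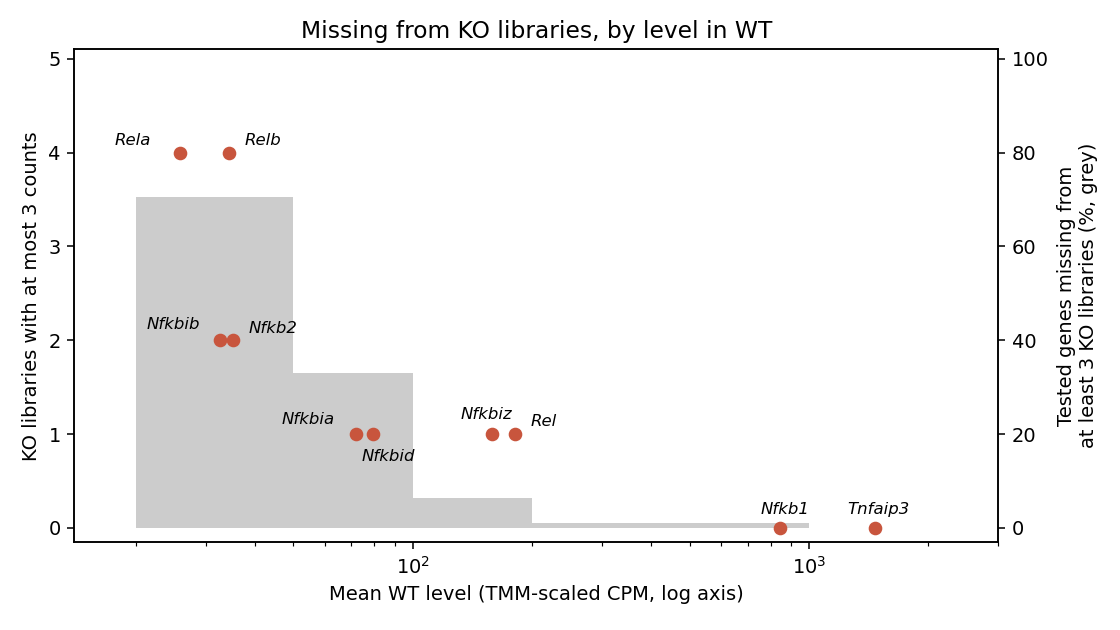
Number of KO libraries in which each gene of the set had at most 3 counts (red points, left axis) against its mean WT level in TMM-scaled CPM (log axis), over grey steps for the percentage of all tested genes missing from at least 3 KO libraries (right axis). Rela and Relb sit at 4 of 5 in the band where 70.6% of genes were missing, and Nfkb1 and Tnfaip3 at 0.

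Other genes of the pathway were examined in 5 lists of 69 genes in all, of which 53 were tested. Of these, 5 fell (edgeR, adjusted p under 0.05), 0 rose and 48 did not pass, with a median log2 fold change of 0.50. At an unadjusted p under 0.05 edgeR had 6 lower and 2 higher. DESeq2 called 5 lower and 3 higher, voom 13 lower and voom with sample weights 15 lower, where 23.3, 13.5, 33.2 and 37.6% of all genes were so called. Beside these 5 of 53 stand the 27.1% of all tested genes that were called lower. At least 3 KO libraries lacked 27 of the 53. Map3k14, Rnf31, Irak2, Bcl3 and Icam1 share 2.06 to 11.7% of their exonic bases with another gene, so their counts are less certain. Myd88, the adaptor that links the IL-33 receptor to the IRAK kinases, was listed at 0 in every library, as were Cxcl10, Cd40, Bcl2a1d and Tnfrsf9, and may not have been measured.

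Of the IKK complex and its upstream kinases, 2 of 9 tested genes fell and 7 did not pass, where 27.1% of all tested genes were lower. Tbk1, an IKK-related kinase of the innate interferon response, had 3660 counts in WT and 2 in KO, a ratio of 218 (95% counting interval 60.4 to 1804, edgeR adjusted p = 0.00163). Map3k14 encodes NIK, the kinase that starts the non-canonical branch in which Relb and Nfkb2 act. It had 2244, 4617, 796, 1702 and 2787 counts in WT and 1, 4, 2, 1 and 0 in KO. Its log2 fold change was −7.23 (SE 1.84, edgeR adjusted p = 0.00536). For both genes all 5 KO libraries lay under the WT range. The catalytic subunit Ikbkb had 4732 and 88 counts (log2 fold change −2.90, edgeR adjusted p = 0.166), 82 of the 88 in KO library 4. Without that library Ikbkb stood at −4.82 (edgeR adjusted p = 0.0181), where 37.8% of all genes were lower. The library was singled out by its Ikbkb count, so that fit adds no support. With any other single KO library left out Ikbkb did not pass (edgeR adjusted p = 0.151 to 0.197). Map3k7, which encodes TAK1, stood at 1.88 and Tab3, its ubiquitin-binding partner, at 2.86, neither past the test (edgeR adjusted p = 0.459 and 0.317).

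Of the adaptors near the receptors, 2 of 17 tested genes fell, against 27.1% of all tested genes. Both encode parts of the linear ubiquitin ligase that activates IKK. Their WT means were low, at 10.2 CPM for Rnf31 and 32.5 CPM for Rbck1. Of tested genes at 20 to 50 CPM in WT, 70.6% were missing from at least 3 KO libraries. Rnf31, the catalytic subunit of the ligase, had 163, 366, 477, 290 and 770 counts in WT and 0 in every KO library, at least 82.2-fold lower when the whole KO group is set to 3 counts (edgeR adjusted p = 0.00163). Rbck1 had 6441 and 2 counts, a ratio of 384 (95% counting interval 106 to 3174, edgeR adjusted p = 0.00283). Sharpin, the remaining part of the ligase and named after its value was seen, stood at −0.63 (edgeR adjusted p = 0.814). Bcl10, Irak2 and Birc2 had positive log2 fold changes of 4.73, 3.22 and 3.47 that did not pass (edgeR adjusted p = 0.114, 0.169 and 0.245). DESeq2 called Bcl10 (5.38, adjusted p = 0.00894) and Irak2 (3.56, adjusted p = 0.0307) higher. So did edgeR for Bcl10 without KO library 3 (5.1, adjusted p = 0.046) or 4 (5.09, adjusted p = 0.0487), and for Irak2 without KO libraries 1 and 5 (3.88, adjusted p = 0.00929). In these fits 3.09, 3.41 and 3.53% of all genes were higher. The libraries left out held at most 3 counts of the gene, so these fits add no support. Bcl10 stood at 2.15 without KO library 2 and Irak2 at 1.91 without KO library 3 (edgeR adjusted p = 0.367 and 0.35). The KO reads of Bcl10, Irak2 and Birc2 were unevenly spread: 12588 of the 12754 KO counts of Bcl10 were in KO library 2, 12978 of the 18903 of Irak2 in KO library 3, and 6634 of the 7363 of Birc2 also in KO library 3.

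None of the 10 tested deubiquitinases and other brakes passed by edgeR, nor did any at an unadjusted p under 0.05 or by DESeq2, while voom called 4 lower, with and without sample weights. N4bp1, Otud7b and Itch had log2 fold changes of −3.34, −2.95 and −2.25, and Zc3h12a, which encodes the RNase Regnase-1, and Otulin, which cuts linear ubiquitin, had 2.36 and 2.24 (edgeR adjusted p = 0.194 to 0.352). By voom N4bp1, Otud7b and Itch were lower (adjusted p = 0.0156, 0.0322 and 0.0218). In edgeR, N4bp1 and Otud7b passed only without the KO library that held most of their KO counts. Without KO library 2, which held 114 of its 118 KO counts, N4bp1 stood at −6.42 (adjusted p = 0.0125), where 35.5% of all genes were lower. Without KO library 3, which held 107 of its 111, Otud7b stood at −6.46 (adjusted p = 0.00744). With any other single KO library left out neither passed (adjusted p = 0.142 to 0.247). Each library was singled out by these counts, so these fits add no support. Of the 2 remaining IkB genes, Bcl3 stood at 1.30 and Nfkbie at −0.29, and neither passed (edgeR adjusted p = 0.65 and 0.921).

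Of 25 genes known as NF-kB targets 15 were tested, 1 fell and 14 did not pass, with a median log2 fold change of 0.03. Over all tested genes 27.1% were lower. Tnfrsf4, which encodes the costimulatory receptor OX40, had 1263 counts in WT and 1 in KO, a ratio of 151 (95% counting interval 27 to 5957, edgeR adjusted p = 0.00196). Il6, which encodes the cytokine interleukin-6, had 8, 21, 585, 388 and 143 counts in WT and 1, 305, 8695, 0 and 337 in KO. Its log2 fold change was 5.52 (SE 2.24, edgeR adjusted p = 0.0788), with 3 KO libraries above every WT library and 1 below. DESeq2 called it higher (5.83, adjusted p = 0.00492), as did edgeR without KO library 1 (5.87, adjusted p = 0.0363), without KO library 4 (5.88, adjusted p = 0.0266) and without KO libraries 1 and 5 (6.05, adjusted p = 0.043). In these edgeR fits 3.72, 3.41 and 3.53% of all genes were higher. KO libraries 1 and 4 had its lowest KO counts, so leaving them out adds no support. Without KO library 3, which held 8695 of its 9338 KO counts, Il6 stood at 3.37 (edgeR adjusted p = 0.172), and with voom at 2.26 (adjusted p = 0.471). Icam1, an adhesion molecule, had 4959 and 20 counts (log2 fold change −3.94, SE 1.65, adjusted p = 0.091), and all 5 KO libraries lay under the WT range. It passed without KO library 5, which held 17 of the 20 counts, at −7.45 (adjusted p = 0.00443), where 36.6% of all genes were lower, and with voom (−5.56, adjusted p = 0.0144). With any other single KO library left out it did not pass (edgeR adjusted p = 0.105 to 0.16). KO library 5 was singled out by its Icam1 count, so the fit without it adds no support. Cd69, an early activation marker, had 129 ± 13.3 CPM in the WT group and 787 ± 1640 CPM in the KO group (n = 5 each, edgeR adjusted p = 0.277), and 27150 of its 28576 KO counts were in KO library 3, without which its log2 fold change was −1.26. Without KO libraries 1 and 5 it was 3.29 (edgeR adjusted p = 0.0367), where 3.53% of all genes were higher, and that value rests on KO library 3. The chemokine gene Ccl5 had 5715 and 41 counts (log2 fold change −3.11, edgeR adjusted p = 0.217).

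Of all tested genes, the 4 whose level followed that of Tnfaip3 most closely over the 10 libraries were Pde4d, Cd2ap, Upf2 and Kcnq5, with Pearson's r of log2(CPM + 1) from 0.92 to 0.932. Tnfaip3 was the reference because it had the highest mean CPM, not corrected for length, in WT and in KO. The libraries share depth and genotype, so these values describe the 10 libraries and carry no p. Their own log2 fold changes were 3.13, 3.08, 3.20 and 2.54, and none passed (edgeR adjusted p = 0.115 to 0.21).

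The scaling or the tool decided the sign for part of the set. Relative to edgeR with TMM, the median over all tested genes moved by −1.30 on the log2 scale with library size alone. It moved by 0.56 with RLE size factors and by −3.11 with voom, which also used TMM but another model. Rel kept a negative sign in the 19 alternative fits that included it and Rela and Relb in the 18 that included them, and with voom all 3 passed as lower (adjusted p = 0.0279, 0.0233 and 0.0326), where 33.2% of all tested genes did. Tnfaip3 kept a positive sign in every fit run, from 0.30 with library size alone to 2.24 with RLE size factors. For Nfkb1, Nfkb2, Nfkbia, Nfkbib, Nfkbid and Nfkbiz the sign of the fitted log2 fold change turned under at least 1 alternative.

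**Figure D5:**
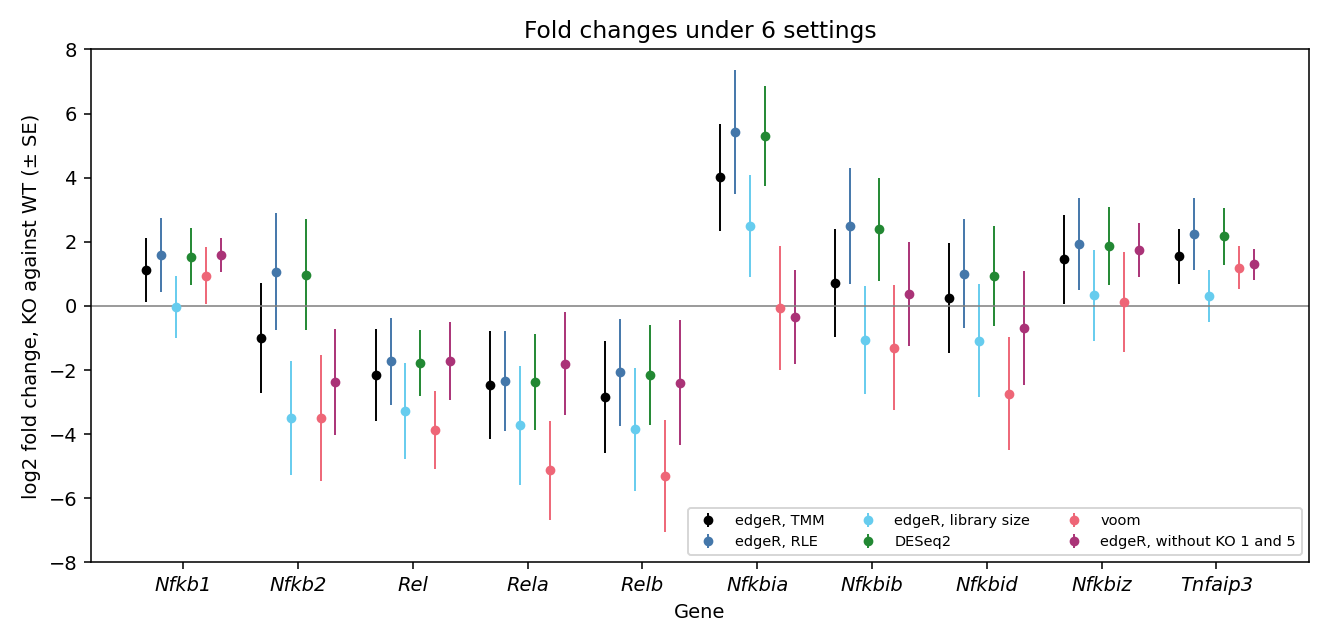
Log2 fold change of KO against WT (y axis, points with bars of ± 1 SE) for each gene (x axis) under 6 settings. Rel, Rela and Relb lie below 0 under all 6, Tnfaip3 above 0, and Nfkb2, Nfkbia, Nfkbib and Nfkbid lie on both sides of 0.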

How the data were processed

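Total RNA of 10 sorted ILC2 libraries was sequenced from stranded libraries, per the labels' protocols. The authors deposited raw read counts for each gene, with no scaling. STAR 2.6.0c, SAMtools 1.8, HTSeq 0.9.1 and build GRCm38 are named in the submitters' processing notes. The sources used here do not give the annotation release, the strand setting or any filter. Totals of 3620002 to 24489987 counts set the precision, and without molecular identifiers reads may repeat a molecule, so intervals and floors cover counting error only.

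Groups follow the genotype in the labels. edgeR 4.0.16 (R 4.3.3) kept 7490 genes by filterByExpr (minimum count 10), scaled libraries by TMM and tested KO against WT by quasi-likelihood, with Benjamini-Hochberg adjustment over all of them. The SE is the log2 fold change divided by the square root of F. Exact permutation tests used all 252 splits of log2(CPM + 1) and the same adjustment. Alternatives were RLE factors, library size, DESeq2 1.42.0, voom (limma 3.58.1), other filters and leaving out libraries. Exonic lengths and positions come from GENCODE M21, which held 54809 of 54838 identifiers. The edgeR, voom and DESeq2 fits and the permutation test were tried on simulated counts. These had the same spread in both groups, unlike the real libraries, and the other procedures were not simulated.

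Named were all 10 genes, Maf, up to 5 genes by smallest p of each pathway list, and the 4 genes most like the one with the highest mean CPM. Sharpin was added after its value was seen. The genes and lists were chosen with earlier results of these data known.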

Additional observations from a re-analysis of the deposited data

Results flagged for a closer look

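In 20 groups of 5 libraries (10 genes in WT and in KO), 4 held a library whose gap to its nearest neighbour took over 0.71 of the group's range, and all 4 were the highest KO library of a gene. Chance flags about 1 in 20 groups of normally distributed values. The KO values are skewed, and the rate for such values was not measured. The values are TMM-scaled CPM. Nfkb2 stood at 68.2 in KO library 1, and the next KO library at 15.4. Rela stood at 22.5 in KO library 4 against 0.274 in the next. Relb had 20.5 in KO library 3 and 2.35 in the next. Nfkbia had 4393 in KO library 5, followed by 1218 in KO library 1.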

How the results depend on the processing

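No paired analysis was possible because the WT and KO libraries share no replicate numbers in the labels. Depth and the number of genes detected limit the KO side. No KO library held over 9867580 counts, and 4052 to 7660 genes had a count in them, against 10577 to 12744 in WT. With every library thinned to the smallest total, 73.6% of tested genes were missing from at least 3 KO libraries, and 70.9% without thinning. Failing the test thus does not show that a gene stayed the same.

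The edgeR counts over all genes, 2027 lower and 112 higher, moved as follows. With a mean of at least 100 CPM (1943 genes) 31 were lower. Higher calls were 193 with RLE size factors, 49 with library size alone, 1512 with DESeq2, 71 with voom and 2345 with no filter. Without KO libraries 1 and 5, chosen after seeing the data, there were 3291 lower and 348 higher. Leaving out 1 library gave 1734 to 3350 lower and 82 to 333 higher. The lower share of calls was 94.8% by TMM, 63.3% with DESeq2, 56.3% with no filter and 27.7% with the 100 CPM minimum. Among the 10 genes, none passed by edgeR with TMM. With voom 3 were lower and with sample weights 4. With RLE factors 1 was higher, with DESeq2 2 and without KO libraries 1 and 5 1. Leaving out single libraries gave 0 to 1 lower and 0 to 2 higher. With exactly 0 counts as missing, 0 genes of the set were missing from at least 3 KO libraries, against 45.9% of all genes.

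Signs turned in these fits, none of which passed, as log2 fold changes. With library size alone: Nfkb1 −0.023, Nfkbib −1.05, Nfkbid −1.08 and Bcl3 −0.0021. With RLE factors Nfkb2 was 1.07, and with DESeq2 0.98. With voom: Nfkbia −0.066, Nfkbib −1.31, Nfkbid −2.74, Bcl3 −2.51, Tab3 −1.52, Map3k7 −1.22, Bcl10 −0.11, Birc2 −2.33, Zc3h12a −0.0051 and Cd69 −1.44. With sample weights: Nfkbib −2.12, Nfkbid −2.47, Nfkbiz −0.35, Bcl3 −2.44, Tab3 −0.61, Map3k7 −0.87, Bcl10 −1.13, Irak2 −0.52, Birc2 −1.39 and Cd69 −2.23. Nfkbid was −0.093 with no filter and −0.39 with the 100 CPM minimum. Leaving out 1 library gave −0.0056 (KO library 1) to 1.43 for Nfkbib, −0.99 (KO library 5) to 0.88 for Nfkbid, −0.80 (KO library 4) to 1.68 for Bcl3, −3.39 to 0.024 (KO library 5) for Nfkbie and −1.26 (KO library 3) to 2.93 for Cd69. Without KO libraries 1 and 5 Nfkbia was −0.34, Nfkbid −0.68 and Nfkbie 0.38. The permutation differences turned by library size to −1.22 for Nfkb1, −0.93 for Nfkbia and −0.64 for Tnfaip3, and with a pseudocount of 5 to 0.32 for Nfkbiz. The cause was not tested.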
